A study of Danio rerio with 15 samples.

Results

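A set of 129 genes stood higher in sorted mpeg1+ cells of csf1rDM zebrafish, which lack functional Csf1 receptors, than in those of controls at both ages examined. The set was drawn from 35117 genes by a rule on levels in CPM (the reads of a gene per 1000000 counted reads of that fish). The lowest of 6 csf1rDM fish had to lie above the highest of 6 controls, the mean over the csf1rDM fish had to reach 10 CPM, and the ratio of mean csf1rDM to mean control level, each with 1 CPM added, had to reach 4 at 33 dpf and again at 1.5 mpf. Of 9591 genes with a mean of at least 10 CPM in csf1rDM fish, 394 had all csf1rDM fish above all controls. Of these, 131 also met both ratios. The rule also left out a few named genes. Of these, the adhesion genes cdh1 and cldn3c, already used as metaphocyte markers, otherwise met it, and leaving them out gave the 129. The difference between csf1rDM and control fish is what these genes were chosen by, so their levels in these 12 fish are given as a description and carry no test. The il34-/- fish had no part in the choice.

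The libraries came from 15 single juvenile fish, in 5 groups of 3. Controls were wildtype fish at 33 dpf and at 1.5 mpf, csf1rDM fish of the same ages were csf1raj4e1/j4e1;csf1rbre01/re01, and il34-/- fish (il34re03/re03) were taken at 1.5 mpf. All fish carried the tg(mpeg-GFP) reporter, and GFP+ cells were sorted from whole dissociated fish. The older fish are titled 5mo, whereas the recorded stage is 1.5 mpf, the age used here. Because each library is a bulk pool of sorted cells, a change in the share of a cell type and one in RNA per cell cannot be told apart. CPM is a share of each library, so a higher level need not mean more cells or more RNA. The paper reports far fewer mpeg1+ cells in csf1rDM fish than in controls.

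Csf1r is the receptor tyrosine kinase through which Csf1 and Il34 support the survival and growth of macrophages, and zebrafish carry the receptor as the paralogs csf1ra and csf1rb. The mpeg1 reporter labels macrophages, but also metaphocytes, which look like macrophages, express epithelial adhesion genes and do not derive from blood. Metaphocytes are found in the skin, and the paper holds that such cells in the intestine are likely metaphocytes too. Tight junctions, which seal epithelial sheets, are built from claudins and MARVEL domain proteins that are held by scaffolds under the membrane.

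Total counts ran from 5488201 to 106374902 per fish, so 3 counts, taken as the smallest level that a library can show, corresponded to 0.0282 to 0.547 CPM. csf1ra was at 107 to 202 CPM in controls, 23.7 to 74.7 CPM in il34-/- fish and at most 0.0768 CPM in 5 of 6 csf1rDM fish, and at 31.8 CPM in csf1rDM fish 2 of 33 dpf, the deepest library. csf1rb was at 124 to 379 CPM in controls and 5.39 to 44.0 CPM in csf1rDM fish. il34 itself was at 6.28 to 20.2 CPM in il34-/- fish and 10.7 to 20.9 CPM in controls of the same age, so its reads do not check the il34-/- label. Of 16 macrophage genes tested, edgeR called 6 lower in csf1rDM cells at 33 dpf and 8 at 1.5 mpf, where 1.34% and 1.2% of all genes were called lower. The list holds csf1ra and csf1rb, the mutated genes themselves. A fitted fold change above 0 was found for 4 of the 16 at each age. At an unadjusted edgeR p under 0.05, 2 were higher and 9 lower at 33 dpf, and 1 higher and 10 lower at 1.5 mpf. Of a list of 34 epithelial junction genes, 23 were found by symbol, and of those found cldn7b alone belongs to the 129. The member MARVELD2 was not matched to the marveld2b of the list, so this overlap depends on the symbols. The genes found summed to 2310 to 4561 CPM in csf1rDM fish, 536 to 1531 CPM in controls and 299.7 to 659 CPM in il34-/- fish. The list also holds cdh1, one of the genes left out above, and may hold others of them. With cdh1 stand epcam and cldnh, which the paper also gives as metaphocyte genes. Neither the sum nor the calls of this list are therefore free of the choice. Of its 22 genes tested, edgeR called 6 higher in csf1rDM fish at 33 dpf and 3 at 1.5 mpf, where 1.71% and 0.437% of all genes were called higher. The member cldn7b was among those called at both ages, so nothing is read from these counts. Of 13 epithelial transcription factors tested edgeR called 0 at each age, though 11 had a fitted fold change above 0 at 33 dpf and 12 at 1.5 mpf. Their list summed to 176 to 335 CPM in csf1rDM fish, 49.4 to 102 CPM in controls and 9.71 to 44.9 CPM in il34-/- fish. The paper's examples of metaphocyte genes cdh1, epcam, cldnh and cd4-1 did not all go the same way. Of these 4, edgeR called 3 higher and 1 lower in csf1rDM fish at 33 dpf, and 2 higher and 1 lower at 1.5 mpf. The junction list, which holds all of them but cd4-1, had 0 genes called lower at either age. The part of these shifts in the results below was not tested.

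The 129 genes together took 1.62%, 1.86% and 1.83% of all counted reads in the 3 csf1rDM fish at 33 dpf, and 1.56%, 1.81% and 2.15% at 1.5 mpf. In controls they took 0.231%, 0.155% and 0.178% at 33 dpf and 0.365%, 0.230% and 0.238% at 1.5 mpf. In il34-/- fish the share was 0.357%, 0.464% and 0.397%. Of the il34-/- fish, 2 lay above all 6 controls and 1 within their range, and all 3 lay far below every csf1rDM fish. All 129 genes had reads in each csf1rDM fish, whereas 9 to 41 of them had no reads in a given control and 19 to 28 in a given il34-/- fish.

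**Figure D1:**
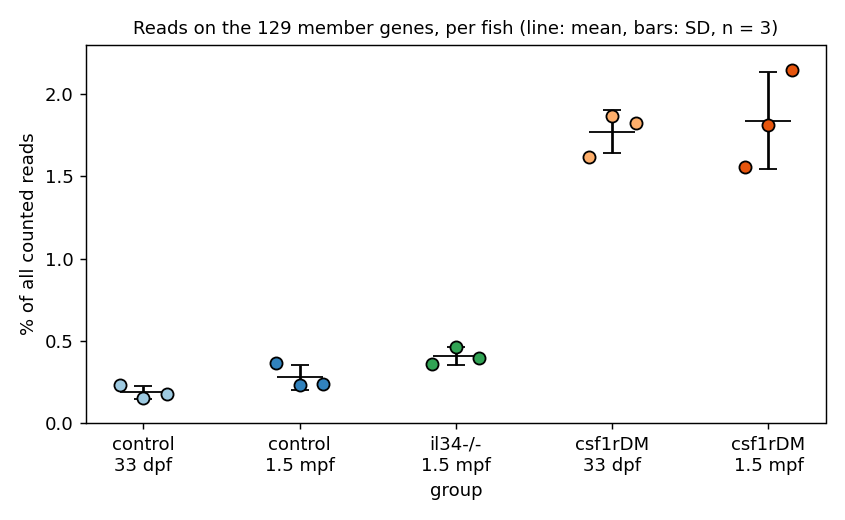
Share of all counted reads, in %, that fell on the 129 genes (vertical axis) in each group of 3 fish (horizontal axis). Points are fish, the line is the mean and the bars are the SD. The 6 csf1rDM fish sit between 1.56% and 2.15%, and the 9 control and il34-/- fish between 0.155% and 0.464%.

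Mean levels over the 6 csf1rDM fish ran from 10.05 to 1456 CPM with a median of 67.1 CPM, and 44 of the genes reached 100 CPM. CPM is not divided by gene length, so these levels do not rank the genes by number of transcripts. The median ratio to controls was 8.29 at 33 dpf and 6.82 at 1.5 mpf, and the highest ratios were 35.5 and 82.9. Where controls had few or no reads, the added 1 CPM limits the ratio, which then mainly follows the csf1rDM level. The ratio was the larger at 33 dpf for 84 genes and at 1.5 mpf for 45. All 129 genes passed the filter on low counts, which kept 17640 genes. edgeR's quasi-likelihood test called 39 of the 129 higher at 33 dpf, where 3.05% of all genes tested were called and 1.71% were called higher, and 23 higher at 1.5 mpf, where 1.63% were called and 0.437% were called higher. This contrast chose the genes, so nothing is read from these counts.

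**Figure D2:**
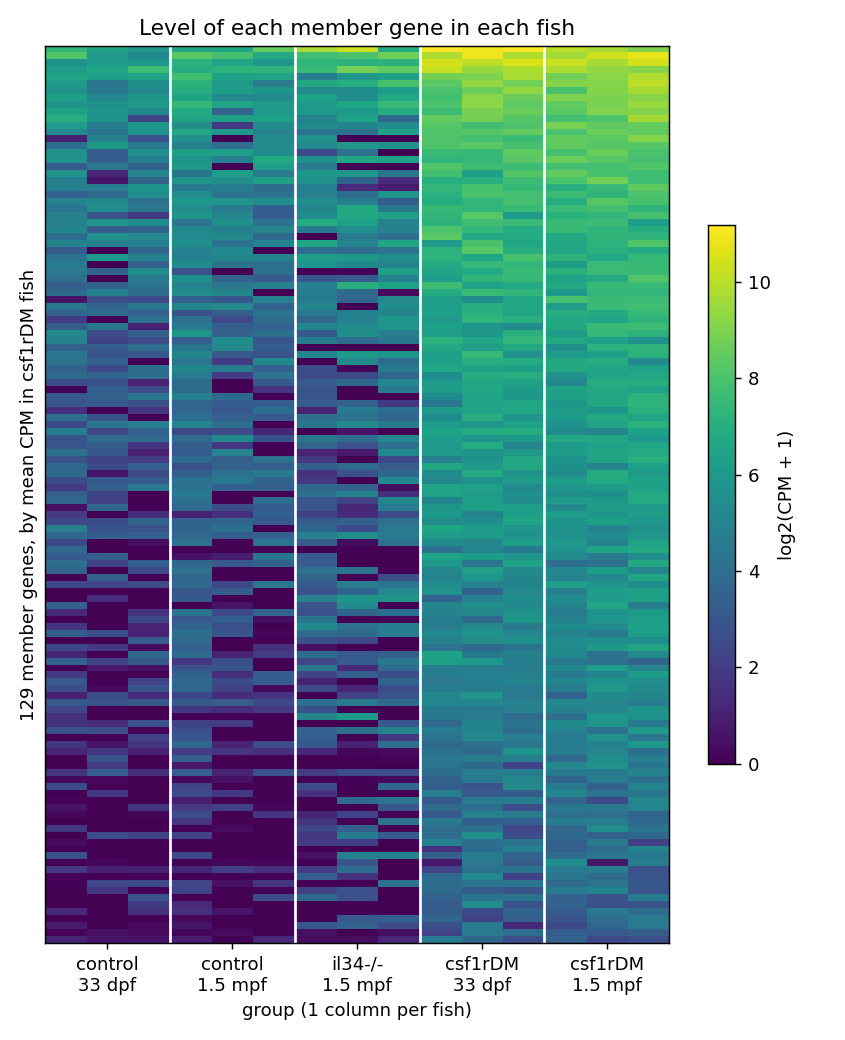
Level of each of the 129 genes (rows, from the highest to the lowest mean in csf1rDM fish) in each of 15 fish (columns, 3 per group), as log2(CPM + 1). The csf1rDM columns are brighter than the control columns in every row, as the rule requires, and the il34-/- columns resemble the controls in most rows.

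The thresholds cut through a continuous range. On the ratio, si:dkey-221l4.10 at 4.002, tank at 4.04 and igsf3l at 4.09 lay just inside, while cdh28 at 3.996, CHST2 at 3.99 and sh2d7 at 3.94 lay just outside. On the level, si:dkey-269o24.2 at 10.05 CPM, si:ch211-197g15.9 at 11.1 CPM and PLAC8 at 11.4 CPM were kept, and zgc:56622 at 9.90 CPM, TRAF3IP1 at 9.65 CPM and ENSDARG00000108877 at 9.21 CPM were not. On the gap between the groups, FADS6, si:dkey-31g6.4 and ENSDARG00000108512 were the closest inside, with lowest csf1rDM levels 0.0118, 0.0313 and 0.230 CPM above the highest control. LSS and ENSDARG00000104258 were left out because at least 1 csf1rDM fish, like all controls, had no reads, and ENSDARG00000059838 because its lowest csf1rDM level was 0.461 against a highest control of 0.570 CPM. Names were found for 102 of the 129 genes, some of them in the capital form of the human gene, and the other 27 are given by Ensembl identifier without a role.

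Tight junction genes formed the first recognisable group. cldn7b, a claudin of epithelial cells, was at 136, 250.1 and 223.5 CPM in csf1rDM fish at 33 dpf and 195, 154 and 254 CPM at 1.5 mpf. In controls it was at 10.6, 14.0 and 48.0 CPM at 33 dpf and 40.8, 18.6 and 17.9 CPM at 1.5 mpf, and in il34-/- fish at 28.4, 14.7 and 58.4 CPM. The ratio was thus 8.10 and 7.54 at the 2 ages, and il34-/- fish 1 and 2 lay within the range of the controls while fish 3 lay above all 6. The claudins cldn15la and cldn15lb, whose mammalian relative forms pores for ions in the gut, lay at 23.4 to 74.6 CPM and at 46.2 to 106.3 CPM over the 6 csf1rDM fish. The highest control was at 16.4 CPM for cldn15la and 23.7 CPM for cldn15lb, in each case control fish 1 of 1.5 mpf. CLDN23 was at 6.51 to 36.8 CPM in csf1rDM fish and had no reads in 4 of 6 controls.

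MARVELD2, known as tricellulin and placed where 3 epithelial cells meet, was one of the most even members. Its levels were 28.2, 45.1 and 45.6 CPM in csf1rDM fish at 33 dpf and 42.7, 46.1 and 41.8 CPM at 1.5 mpf. It had no reads in 4 of 6 controls and was at 8.19 and 13.9 CPM in the others, and il34-/- fish had 5.87, 4.20 and 0 CPM. MAGI1, a scaffold protein of tight junctions, was at 7.52 to 20.1 CPM in csf1rDM fish and at most 5.03 CPM in controls. In il34-/- fish it had no reads in fish 1 and 2 but 17.2 CPM in fish 3, a level within the csf1rDM range. The cadherin CDH24, an adhesion receptor, had no reads in all 6 controls and all 3 il34-/- fish, against 1.98 to 32.0 CPM in csf1rDM fish, so that its mean of 16.5 CPM was at least 46.7-fold higher than the 3-count floor of the controls.

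Genes of the epithelial membrane, of protein sorting and of surface proteolysis formed a further group, in which il34-/- fish stood differently from gene to gene. spint2, an inhibitor of serine proteases at the cell surface, was at 273, 299 and 362 CPM and 249.6, 409 and 349 CPM in csf1rDM fish at the 2 ages. Controls had 19.1 to 109 CPM and il34-/- fish 18.3, 17.6 and 83.5 CPM. TMPRSS2, a serine protease anchored in the membrane, had no reads in any control at 33 dpf and was at least 83.7-fold higher there in csf1rDM fish, with 49.0, 11.1 and 36.7 CPM. At 1.5 mpf TMPRSS2 reached 26.4, 72.7 and 81.5 CPM in csf1rDM fish, 6.73, 8.71 and 0 CPM in controls and 5.87, 11.2 and 34.6 CPM in il34-/- fish, where fish 3 overlapped with the csf1rDM fish.

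AP1M2, the adaptor subunit that sorts proteins to the basolateral side of epithelial cells, had ratios of 15.3 at 33 dpf and 8.64 at 1.5 mpf. Its levels were 65.8 to 163 CPM in csf1rDM fish, 0 to 17.6 CPM in controls and 11.7, 28.9 and 59.5 CPM in il34-/- fish. The 4-span membrane proteins TM4SF4 and tm4sf21a, the tetraspanin TSPAN15 and rab11fip1a, an effector of Rab11 on recycling endosomes, also belong here. F2RL1, a receptor that proteases activate by cutting it, was the most variable of all 129 genes, since csf1rDM fish 2 of 33 dpf had 44.2 CPM and the other 5 had 6.04 to 10.3 CPM. Summed over the 10 genes of this kind, csf1rDM fish had 928 to 1341 CPM, controls 53.6 to 298 CPM and il34-/- fish 121 to 319 CPM.

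**Figure D3:**
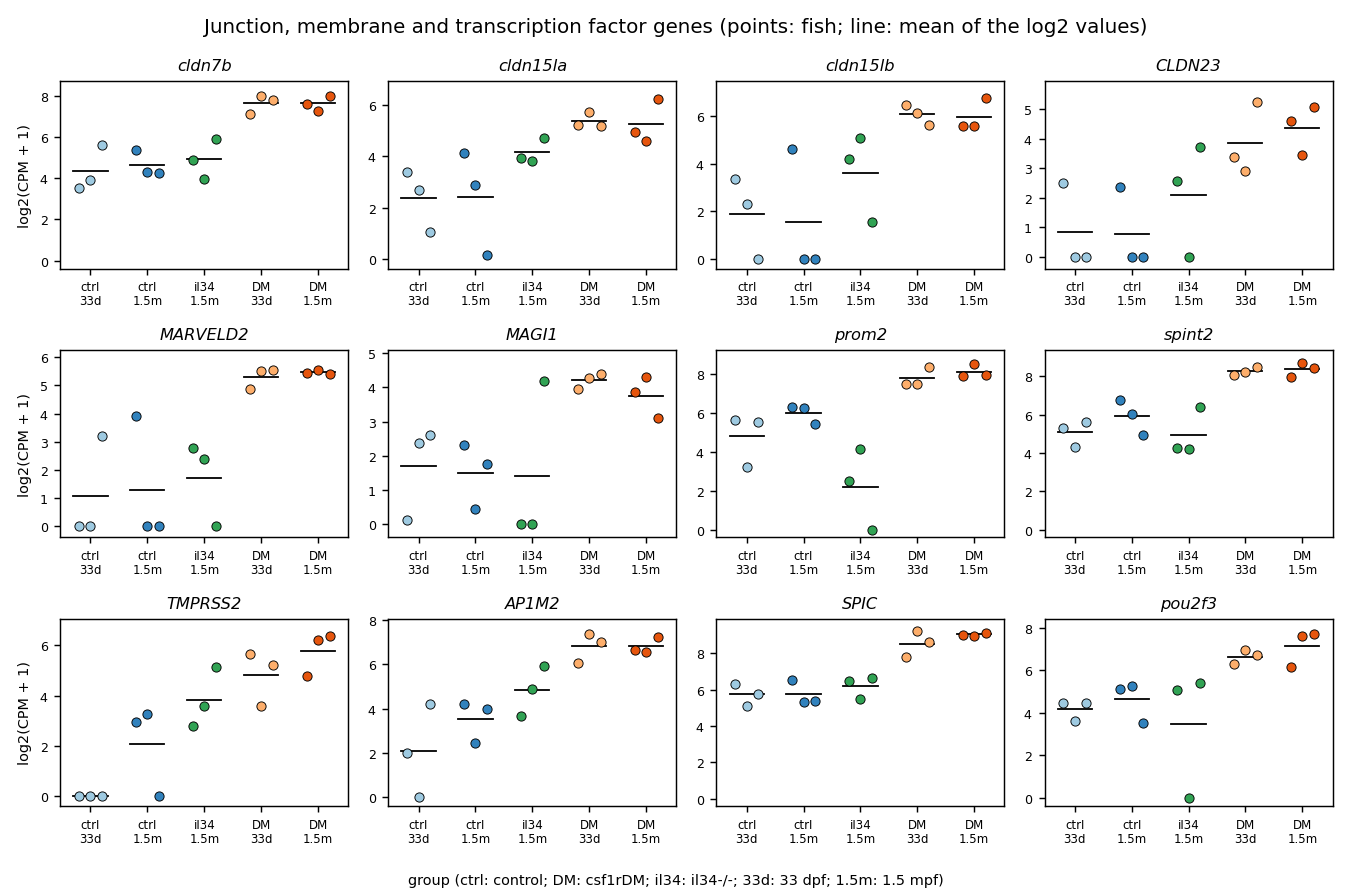
Levels of 12 genes for junctions, epithelial membrane and transcription factors as log2(CPM + 1) on the vertical axes, by group on the horizontal axes. Points are single fish and the line is the mean of the 3 log2 values. All csf1rDM points lie above all control points, which the rule fixed, while il34-/- points mostly lie among the controls. Single il34-/- fish reach the csf1rDM range for cldn15la, CLDN23, MAGI1 and TMPRSS2.

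The MHC class II genes mhc2d8.37a2 and mhc2bl belong to the molecules that present peptides to T cells. mhc2d8.37a2 was at 262, 230.3 and 197 CPM in csf1rDM fish at 33 dpf and at 355, 322 and 552 CPM at 1.5 mpf. In controls it was at 1.03, 29.3 and 5.97 CPM and then 49.3, 0 and 37.8 CPM, and in il34-/- fish at 50.0, 0.0356 and 0 CPM. mhc2bl was at 202 to 283 CPM in csf1rDM fish, 0 to 76.6 CPM in controls and 23.6, 0.0356 and 0 CPM in il34-/- fish. Both genes were therefore without reads in the same control at 1.5 mpf and at or below the 3-count floor in the same il34-/- fish, 2 and 3. MHC class II genes are a family of similar copies, and reads shared between copies could not be separated in the counts. None of the 12 genes of a list for antigen presentation, which holds other MHC class II and invariant chain genes, was among the 129. At 33 dpf edgeR called 6 of them higher in csf1rDM fish, where 1.71% of all genes were called higher, and 0 lower. At an unadjusted edgeR p under 0.05, 6 were higher and 2 lower at that age. At 1.5 mpf edgeR called 0 of the 12, with 1 higher and 2 lower at an unadjusted p under 0.05 and a median log2 fold change of 0.14.

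Transcription factors of the set included 2 ETS factors of the Spi family, which act in myeloid cells. SPIC, known in mice from red pulp macrophages of the spleen, was at 219, 587 and 391 CPM in csf1rDM fish at 33 dpf and 511, 499 and 560.2 CPM at 1.5 mpf. Controls had 33.9 to 90.4 CPM and il34-/- fish 87.2, 44.1 and 99.3 CPM, within or just above the control range. spi2 was at 42.2 to 124 CPM in csf1rDM fish and 0 to 15.9 CPM in controls. pou2f3, a POU factor that specifies tuft cells in mammals, was at 77.3, 123 and 103 CPM and then 70.5, 195 and 213 CPM in csf1rDM fish, against 10.3 to 37.2 CPM in controls. il34-/- fish had 32.8, 0 and 41.2 CPM of pou2f3, so 1 of them had no reads of a gene that every control expressed. PAX1 and the zinc finger protein ZNF385A complete this group, with csf1rDM levels of 7.88 to 33.9 CPM and 38.9 to 77.1 CPM.

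Receptors and signalling molecules of immune cells were the largest group that could be formed, with 16 genes. tyrobp, the adaptor that passes signals from activating receptors of myeloid cells, was at 66.4, 31.7 and 78.3 CPM in csf1rDM fish at 33 dpf and 73.1, 57.4 and 74.8 CPM at 1.5 mpf. Controls had 0 to 10.1 CPM and il34-/- fish 3.55, 1.71 and 5.08 CPM, and its ratios were 23.6 and 13.1, the smaller of which was among the 10 highest smaller ratios of the set. GPR34, a receptor for lysophosphatidylserine in mammals, was at 79.3 to 177 CPM in csf1rDM fish and 5.82 to 17.9 CPM in controls. ifnlr1, in mammals the receptor chain specific for type III interferons, was at 132 to 445 CPM in csf1rDM fish, 0.547 to 80.2 CPM in controls and 47.6, 10.7 and 1.58 CPM in il34-/- fish. Fish 2 and 3 of the il34-/- group lay below the 44.2 to 80.2 CPM of controls of their age (log2 -1.72, edgeR adjusted p = 0.562).

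caspb, an inflammatory caspase of zebrafish, was even across csf1rDM fish, with 178, 157 and 192 CPM at 33 dpf and 192, 232 and 152 CPM at 1.5 mpf. Controls had 9.38 to 45.4 CPM of caspb, and il34-/- fish 36.2, 99.8 and 21.2 CPM. tank, an adaptor of the TRAF pathway, varied even less, with 25.8 to 37.3 CPM in csf1rDM fish and 4.34 to 8.17 CPM in controls. thy1, a surface glycoprotein with a lipid anchor, was at 254 to 701 CPM in csf1rDM fish and 50.7 to 172 CPM in controls. il12bb, a p40 subunit gene of interleukin 12, and tlr4al, a toll-like receptor, had ratios of 5.27 and 19.7 at 33 dpf and 11.004 and 4.71 at 1.5 mpf. For all 16 genes of this group, as for 104 of the 129 and for 10.1% of all genes, the 3 il34-/- fish lay below the 3 csf1rDM fish of the same age, whose values the rule had required to be high. The same held for all transcription factors, cytoskeletal genes and MHC class II genes of the set.

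Enzymes took the largest summed level of the groups, 1969 to 3789 CPM in csf1rDM fish, 195 to 587 CPM in controls and 442 to 643 CPM in il34-/- fish. chia.6, an acidic chitinase, was at 912, 1935 and 887 CPM at 33 dpf and 781, 1260.0 and 1726 CPM at 1.5 mpf in csf1rDM fish. Controls had 37.3 to 321 CPM of chia.6 and il34-/- fish 212, 251 and 412 CPM. sult5a1, a sulfotransferase, was at 234 to 343 CPM in csf1rDM fish with a coefficient of variation (CV, the SD divided by the mean) of 0.129, and at 14.8 to 64.0 CPM in controls. prdx1, a peroxiredoxin that removes peroxides, was at 294, 216 and 261 CPM at 33 dpf and 489, 347 and 363 CPM at 1.5 mpf. It stood at 2.63 to 68.7 CPM in controls and 39.3, 31.8 and 42.0 CPM in il34-/- fish, so that its ratio was 4.90 and then 12.7. ace, the angiotensin-converting enzyme, was at 218 to 811 CPM in csf1rDM fish and 3.98 to 127 CPM in controls. Lipid enzymes were FASN, the fatty acid synthase, the desaturase FADS6, UGT8, which makes galactosylceramide in mammals, and LTC4S, which makes leukotriene C4.

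Channels and cytoskeletal genes included members with almost no reads outside csf1rDM fish. esyt3, which tethers the endoplasmic reticulum to the plasma membrane, was at 72.6, 98.8 and 69.7 CPM and then 86.5, 107 and 84.4 CPM in csf1rDM fish. It was at 0 to 14.4 CPM in controls and 6.42, 0 and 21.0 CPM in il34-/- fish, and its ratios of 13.5 and 14.2 were close to each other. TRPM2, a cation channel opened by ADP-ribose, was at 24.6 to 72.8 CPM in csf1rDM fish and 0 to 6.54 CPM in controls. klc4, a kinesin light chain, was at 10.19 to 34.2 CPM in csf1rDM fish but at most 0.454 CPM in controls and 0.226 CPM in il34-/- fish. GSN, the actin-severing protein gelsolin, was at 208 to 544 CPM in csf1rDM fish and 11.2 to 112 CPM in controls. rassf7b, a Ras association domain gene, had the lowest CV of all 129, at 0.123, with 79.3 to 110.3 CPM in csf1rDM fish and 4.56 to 34.5 CPM in controls.

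The highest smaller ratio of all belonged to si:dkey-19a16.2, with 18.5 and 17.8 at the 2 ages. CDH24, klc4, ENSDARG00000104640, mhc2d8.37a2, esyt3, tmem30c, tyrobp, ENSDARG00000089356 and ENSDARG00000071629 followed, with smaller ratios of 15.5 down to 13.0. Several of these had controls at or near 0, so the added 1 CPM limits their ratios and bears on their rank. tmem30c is named as a subunit of lipid flippases. ENSDARG00000104640 and ENSDARG00000089356 had at most 0.117 and 0.258 CPM in any control. ENSDARG00000108332 had no reads in controls at 1.5 mpf against 48.6, 91.2 and 105.8 CPM in csf1rDM fish, a difference of at least 254-fold against the floor. At 33 dpf it had 13.0 CPM in control fish 1, close to the 16.0 CPM of the lowest csf1rDM fish, so the near absence in controls held at the older age.

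Several unnamed members came in runs of like clone names. si:ch73-343g19.4 was at 314, 651 and 459 CPM and 555, 545 and 1057 CPM in csf1rDM fish, si:ch73-343g19.7 at 96.6 to 242 CPM and si:ch73-343g19.5 at 22.1 to 84.1 CPM. si:dkey-33i11.9 was at 1395, 1074 and 1552 CPM and 1215, 839 and 1336 CPM, while si:dkey-33i11.8 from the same clone was at 5.22 to 30.7 CPM. si:dkey-221l4.10 was at 25.6 to 66.8 CPM in csf1rDM fish and 0 to 18.4 CPM in controls, and si:dkey-221l4.12 at 24.3 to 70.5 CPM and 0 to 10.15 CPM. In the RefSeq annotation of the GRCz12tu assembly, 55 of the 129 genes were found by symbol, on 23 chromosomes. Among these 55, a single pair, si:ch73-343g19.4 and si:dkey-33i11.9 on chromosome 16, had at most 5 genes between them, namely 2. si:ch73-343g19.5, si:ch73-343g19.7, si:dkey-33i11.8 and si:dkey-221l4.12 were not found by symbol, so their distance to the others was not measured. Members of such runs may be similar copies, so their reads cannot be assigned with certainty. The other unnamed or little known genes among the 20 highest were si:dkeyp-116a7.2, ENSDARG00000089211, ENSDARG00000086294, si:ch73-359m17.7, cusr and ENSDARG00000089129, with means of 231 to 1456 CPM.

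The CV of the members over the 6 csf1rDM fish ran from 0.123 to 1.11 with a median of 0.429, in fish that the rule used. csf1rDM fish 3 of 1.5 mpf had the highest level for 47 of the 129 genes and csf1rDM fish 1 of 1.5 mpf for 10. Among controls, fish 1 of 1.5 mpf was the highest for 58 genes, and without this fish the rule took 171 genes, of which 125 were among the 129. Without csf1rDM fish 2 of 33 dpf, the fish with reads on csf1ra, it took 131 genes, 117 of them shared. When counts were thinned to the smallest total the rule took 131, with 124 shared.

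The il34-/- fish addressed whether loss of a ligand of the receptor went with like levels of these genes. The controls of 1.5 mpf had been required to be low by the rule, so the comparison with il34-/- fish is not free of the choice. edgeR called 1 of the 129 genes, or 0.775%, where 0.686% of all 17640 genes were called. This gene, LTC4S, fell: it had no reads in all 3 il34-/- fish, against 19.3, 37.8 and 8.44 CPM in controls and 47.0, 141 and 151 CPM in csf1rDM fish. The fitted log2 fold change against controls was -11.70 (SE 1.096, edgeR adjusted p = 0.0019), and measured against the 3-count floor the level was at least 76.6-fold lower. When only the 2 groups compared were fitted, the call was lost (adjusted p = 0.1104). At an unadjusted p under 0.05, 24 members passed, 18.6% of the set where 11.3% of all genes did. Of these 16 were higher, 12.4% of the set against 4.81% of all genes, and 8 lower, 6.20% against 6.47%. DESeq2 called 14 of the 129, or 10.9%, where it called 6.49% of all genes. Of these 14 members, 9 were higher and 5 lower in il34-/- fish.

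The median log2 fold change of the 129 genes between il34-/- and control fish was 0.19, where the median over all genes tested was -0.12. It lay between 0.04 and 0.63 when single fish were left out, and the highest value was reached without control fish 1 of 1.5 mpf. The 3 il34-/- fish lay above all 3 controls of their age for 11 members, or 8.53%, where 11.2% of all genes did so, and below them for 6 members, or 4.65%, where 9.03% did so. Neither count exceeds its background. Against csf1rDM fish of the same age, the il34-/- fish were all lower for 104 members and all higher for 0. Over all genes 10.1% were all lower and 12.9% all higher. edgeR called 23 members lower and 0 higher in il34-/- than in csf1rDM fish, where 0.867% of all genes were called lower. At an unadjusted p under 0.05 the counts were 68 lower, where 7.57% of all genes were, and 0 higher. The csf1rDM values chose the genes, so these counts describe the set only.

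Some members nevertheless stood at or near the csf1rDM level in il34-/- fish. For 16 genes 1 of the 3 il34-/- fish reached the lowest csf1rDM fish of its age, for 8 genes 2 fish did and for 1 gene all 3 did. For the other 104 none did, where none did for 10.1% of all genes. The rule had required high csf1rDM values, so these counts describe the set only. si:dkeyp-116a7.2, which took the most reads of all members, was at 2301, 1872 and 2186 CPM in csf1rDM fish at 33 dpf and 1042, 808 and 528 CPM at 1.5 mpf. Its levels in il34-/- fish were 854, 1270.1 and 114 CPM, against 92.6, 98.0 and 369 CPM in controls. Fish 1 and 2 were thus within or above the csf1rDM range and fish 3 within the control range, and the fold change did not pass the test (log2 1.91, SE 0.72, edgeR adjusted p = 0.328).

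si:dkey-19a16.2 was at 28.5, 57.2 and 53.5 CPM in il34-/- fish, against 7.87, 0 and 0 CPM in controls and 40.5, 68.2 and 81.3 CPM in csf1rDM fish. All il34-/- fish lay above the controls, although the difference did not pass the test (log2 4.05, SE 1.84, edgeR adjusted p = 0.437). PLAC8 was alone in having all 3 il34-/- fish, at 7.37, 10.5 and 4.86 CPM, at or above the lowest csf1rDM fish of 1.5 mpf, which had 4.55 CPM. Its adjusted p against controls, from edgeR, was 0.349. ENSDARG00000071629 was at 33.2, 61.0 and 0 CPM, and ENSDARG00000058999 at 0.410, 29.3 and 29.4 CPM, in il34-/- fish, so that for each gene 1 il34-/- fish stayed at or near 0.

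GPR34 stood at an intermediate level, with 22.0, 29.5 and 32.2 CPM in il34-/- fish, above the 5.82, 8.71 and 17.9 CPM of controls and below the 111 CPM of the lowest csf1rDM fish of that age (log2 1.25 against controls, SE 0.43, edgeR adjusted p = 0.268). ENSDARG00000103688 was at 28.5, 45.5 and 24.1 CPM in il34-/- fish, above controls at 9.53 to 11.9 CPM, and fish 2 lay within the csf1rDM range of 40.8 to 56.1 CPM. ENSDARG00000089211 was at 185, 457 and 335 CPM between controls at 120 to 159 CPM and csf1rDM fish at 561 to 878 CPM. The others of the 11 genes without overlap above controls were si:dkey-33i11.9, si:ch73-343g19.5, si:ch73-343g19.7, il12bb, tank, tm4sf21a, si:dkey-19a16.2 and PLAC8. None of them passed the test.

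Other members stood below the controls in il34-/- fish. prom2, a prominin of membrane protrusions in epithelial cells, was at 4.64, 16.7 and 0 CPM in il34-/- fish, below the 78.5, 76.3 and 42.7 CPM of controls, and at 241, 377 and 251 CPM in csf1rDM fish (log2 -3.24 against controls, SE 1.06, edgeR adjusted p = 0.235). ptprjb.1, a receptor tyrosine phosphatase, had 0, 0.533 and 0 CPM in il34-/- fish, 4.34, 5.08 and 1.29 CPM in controls and 33.7 to 87.8 CPM in csf1rDM fish. ENSDARG00000086294 was at 27.0, 55.7 and 79.8 CPM in il34-/- fish against 87.5 to 211 CPM in controls. LTC4S, ENSDARG00000107717 and ENSDARG00000086492 complete the 6 genes with all il34-/- fish below controls. s100u, an S100 calcium-binding gene, was at 27.3 CPM in il34-/- fish 1 but at 1.53 and 0.791 CPM in fish 2 and 3, against 14.9 to 24.7 CPM in controls of that age.

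**Figure D4:**
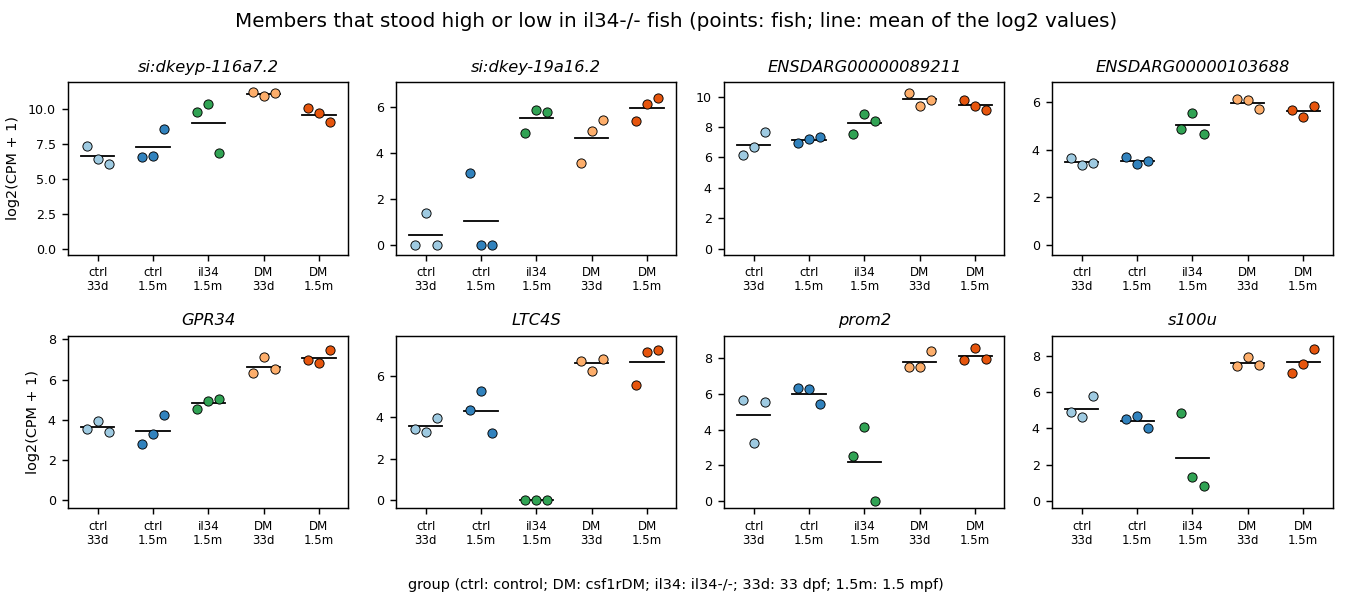
Levels of 8 members in each fish as log2(CPM + 1) on the vertical axes, by group on the horizontal axes, chosen after their values were seen to show the range of patterns in il34-/- fish. Points are fish and the line is the mean of the log2 values. si:dkey-19a16.2 and GPR34 lie above all controls in the 3 il34-/- fish, and LTC4S and prom2 below the controls of their age.

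By group of function, the median log2 fold change of il34-/- against control fish was 1.05 over the 7 junction and adhesion genes, 0.87 over the 10 epithelial membrane genes and 1.22 over the 3 channel and contact genes. It was -0.25 over the 16 immune receptor and signalling genes, 0.05 over the 5 transcription factors and -0.66 over the 8 cytoskeletal genes. The 8 enzymes, LTC4S included, had a median of 0.46 and the MHC class II pair one of -1.86. LTC4S was the only member that edgeR called, and the groups were formed after values were seen. The list of junction genes, cldn7b among them, had a median of -1.74 over 22 genes tested. The summed level of the 7 junction members was 64.5, 70.4 and 115 CPM in il34-/- fish from the lowest to the highest, and 20.4, 25.4 and 103 CPM in controls, so the groups overlapped.

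Age was compared within each genotype. The rule used the same fish and set conditions at both ages, which favours genes with like csf1rDM levels at the 2 ages, so the counts on age describe the set and nothing is read from their size against all genes. In csf1rDM fish edgeR called 0 of the 129 genes between 1.5 mpf and 33 dpf, where 0.215% of all genes were called, and DESeq2 called 0, where it called 5.9% of all genes. At an unadjusted p under 0.05 there was 1 gene, 0.775% of the set against 10.9% of all genes. The median log2 fold change was 0.25, where the median of all genes was 0.00. That gene, ENSDARG00000076277, was at 73.3, 46.7 and 94.3 CPM at 33 dpf and 241, 189.5 and 198 CPM at 1.5 mpf (log2 1.58, SE 0.70, edgeR adjusted p = 0.453).

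The csf1rDM fish of 1.5 mpf lay above those of 33 dpf for 15 members, or 11.6%, where 6.86% of all genes did so, and below them for 5 members, or 3.88%, where 6.64% did so. il12bb was among the 15, with 84.0, 55.6 and 40.8 CPM at 33 dpf and 108, 186 and 204 CPM at 1.5 mpf (log2 1.49, SE 0.73, edgeR adjusted p = 0.469). mhc2d8.37a2, prdx1, TRPM2 and gna15.2, a G protein subunit, were others. The 5 that lay lower at the older age were si:dkeyp-116a7.2, ptprjb.1, sxph, ftcdnl1 and ENSDARG00000108512. sxph, named for saxiphilin, was at 97.6, 68.4 and 55.0 CPM and then 51.1, 31.3 and 48.2 CPM, a difference that did not pass the test (edgeR adjusted p = 1.00).

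In controls edgeR called 0 of the 129 genes between the ages, where 1.17% of all genes were called. At an unadjusted p under 0.05, 17 were higher at 1.5 mpf, 13.2% of the set against 5.39% of all genes, and 1 was lower, against 3.82%, which makes 14.0% of the set and 9.21% of all genes in both directions. DESeq2 called 6, or 4.65%, where it called 4.97% of all genes. The controls of 1.5 mpf lay above those of 33 dpf for 11 members, or 8.53%, where 6.79% of all genes did so, and below them for 0, where 13.3% did so. The rule caps the controls of both ages by the lowest csf1rDM fish and sets a ratio within each age, so these counts describe the set only. The median log2 fold change of the members was 0.78, where that of all genes was 0.05, and 102 members had a positive and 26 a negative value. Without control fish 1 of 1.5 mpf the median was 0.25. The change with age of the difference between csf1rDM and control fish was fitted as an interaction. Since the rule required both of these differences to be large, its values too are a description. edgeR called 0 members, where 0.238% of all genes were called, 6 were under an unadjusted p of 0.05, 4.65% of the set against 10.6% of all genes, and DESeq2 called 2, or 1.55%, against 5.68% of all genes. The median of the interaction was -0.63 on the log2 scale, that is a smaller difference at the older age, and -0.15 without control fish 1 of 1.5 mpf.

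**Figure D5:**
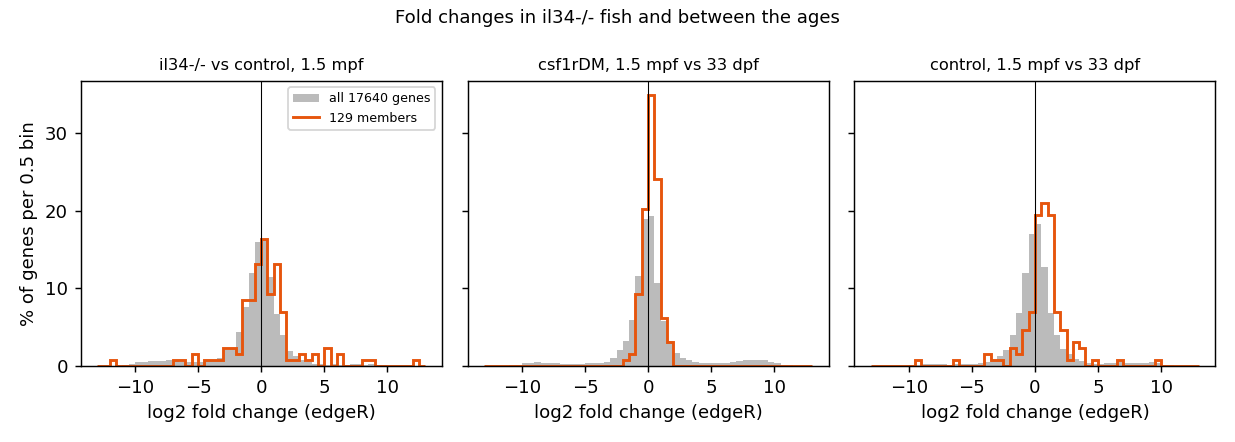
Distribution of edgeR log2 fold changes (horizontal axes, bins of 0.5) as % of genes (vertical axis) for the 129 members (line) and all 17640 genes tested (filled), in 3 comparisons. The members centre at 0.19 for il34-/- against control fish, at 0.25 for age in csf1rDM fish and at 0.78 for age in controls, where the medians of all genes were -0.12, 0.00 and 0.05.

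No gene of the lists for keratins (18 tested), ionocytes (8), dendritic cells (5) and neutrophils (7) belonged to the 129, which hold 0.731% of the 17640 genes tested, so nothing is read from this count. At 33 dpf edgeR called 1 keratin higher in csf1rDM fish, where 1.71% of all genes were called higher. At an unadjusted edgeR p under 0.05, 4 keratins were higher and 0 lower at that age. A fitted fold change above 0 was found for 16 of the 18 at 33 dpf and 9 at 1.5 mpf. The summed keratin level at 33 dpf was 5573 to 6694 CPM in csf1rDM fish and 4507 to 4624 CPM in controls. At 1.5 mpf edgeR called 0 keratins, with 2 higher and 2 lower at an unadjusted p under 0.05, and the sum was the lower in csf1rDM fish, at 4225 to 4913 CPM against 5583 to 6216 CPM. The part of keratin-expressing cells in the results was not tested. Of 14 phagocytosis genes, edgeR called 2 lower in csf1rDM fish at 33 dpf and 5 at 1.5 mpf, where 1.34% and 1.2% of all genes were called lower. The others did not pass the test, and 3 of the 14 had a fitted fold change above 0 at each age. Replicates are single fish of one group, so p-values measure the spread between fish.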

How the data were processed

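RNA was sequenced from mpeg-GFP+ cells sorted from single juvenile fish and amplified with the SMART-seq V4 kit. A single table of unnormalized counts by Ensembl gene was deposited by the authors. The submitters' processing notes name CASAVA 1.8, cutadapt, STAR 2.5.4b, Cufflinks 2.2.1, HTSeq 0.11.0 and edgeR, and the GRCz10 build. Whether counting used strand is not given in the sources used here.

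Symbols were found for 27000 of 35117 identifiers in a table of gene names. CPM was computed from column totals. Total counts differed 19.4-fold between fish. The members, the gene lists and the groups of function were chosen with earlier results of these data known. Named are the 20 members with the highest mean CPM in csf1rDM fish, the 10 with the highest smaller ratio, members called in tests on il34-/- fish or age, families and lists with at least 2 members, and the 3 genes nearest each threshold on either side. Others are examples of their function, chosen after their values were seen. Of the members, 59 were sorted into 8 such groups by hand.

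Tests used edgeR 4.0.16 in R 4.3.3 (TMM scaling, filterByExpr, robust quasi-likelihood fit of all 15 fish with 1 coefficient per group), with Benjamini-Hochberg adjustment over 17640 genes and a threshold of 0.05. The common dispersion was 1.57. The script was tested on simulated data. Alternatives were DESeq2 1.42.0, other scalings and filters, thinned counts, fits of only the groups compared, a replicate block, other thresholds of the rule and leaving out each fish. Figures were drawn with matplotlib 3.10.9.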

Additional observations from a re-analysis of the deposited data

How the results depend on the processing

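The rule took 56 genes with a ratio of at least 6 and 247 with no condition on overlap. It took 130 with TMM-scaled CPM and 134 with DESeq2 size factors, of which 125 and 126 were among the 129. Leaving out single fish gave 120 to 171 genes. For il34-/- against control fish, 0 members were called when only the groups compared were fitted, where 61 of 14047 genes were called. DESeq2 called 14 members and 6.49% of all genes. With single fish left out, 1 to 3 members were called, where 16 to 107 of 18747 to 19250 genes were. DESeq2 called 6 members for age in controls (4.97% of all genes) and 2 for the change of the csf1rDM difference with age (5.68% of all genes), where edgeR called 0 members. The cause was not tested. Leaving out single fish gave medians on the log2 scale of 0.25 to 0.91 for age in controls and -0.76 to -0.15 for the change with age, and without control fish 1 of 1.5 mpf they were 0.25 and -0.15. Age in csf1rDM fish gave 0 calls of members throughout, where 0 to 1040 of all genes were called, with member medians of 0.09 to 0.39. Leaving out fish gave 0 or 1 calls of members for age in controls, where 99 to 180 of all genes were called. The log2 value of LTC4S stayed between -12.08 and -9.97 under all alternatives, and its adjusted p was above 0.05 only with the groups compared fitted alone. Of 120 ratios recomputed for the 20 highest members under other scalings, chosen after seeing the data, 118 moved by less than the spread between fish. The exceptions were those of si:dkeyp-116a7.2 at 33 dpf, at 22.7 and 23.0 in place of 20.3.

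Equal replicate numbers did not pair the fish: correlations of deviations over 30 same-numbered pairs ran from -0.03 to 0.08, with 0 above 0.1. With a replicate block the members called were 1 for il34-/- fish and 0 for both age comparisons and their difference. Of all 17640 genes, 58 were called for il34-/- fish, 22 for age in csf1rDM fish, 165 for age in controls and 2 for the difference. The medians with the block were 0.22 for il34-/- fish and 0.28 for age in csf1rDM fish. Depth limits the genes near 0: in the smallest library 3 counts equal 0.547 CPM.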
